A study of Mus musculus with 9 samples.

Results

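The intervals described here were called in the E11.5 HOXD13 CUT&RUN library and in none of the other 8 libraries of the series. A member is a peak interval of that list which shares not a single base with any interval of the other 8 lists, on the autosomes and, for chromosome 2, up to the insertion described below. The members were thus chosen by the deposited peak calls themselves. There were 36999 such unique intervals among the 110579 intervals considered, or 33.5%. They are set against the 12100 intervals of the same list (10.9%) that overlapped all 8 other lists, called shared here. The remaining 61480 intervals overlapped 1 to 7 other lists.

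The E11.5 library came from distal forelimbs of embryos of the II1 T-DOM 542 line (542), which descends from 1 founder and was homozygous here, in which a single copy of the limb enhancer II1, the HBB promoter and lacZ sits in the domain telomeric to HoxD. The other libraries, all labelled E12.5 distal forelimb, were 2 for HOXA13 from 542 embryos, 3 for HOXA13 from wild type (wt) and 3 for HOXD13 from wt. All were in the B6CBAF1 background, each from cells pooled over several embryos, and wt HOXD13 replicate 3 was a reanalysis of an earlier library. Titles and descriptions give E11.5 and HOXD13 for the library studied here, while the growth protocol gives 1 collection day for the whole series, E12.5, and the reporting summary of the study names this file once as HOXA13 and once as HOXD13. It is called by its label throughout. It is 1 library and the sole one of its stage and of its combination of genotype and antibody, so stage, genotype, antibody and batch cannot be told apart, and no test was made. A peak list holds no expression, so the tissue label could not be checked against marker genes.

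HOXA13 and HOXD13 are homeodomain transcription factors of the distal limb bud, where they act on digit enhancers and are needed for the hand and foot to form. Their homeodomains prefer an AT-rich core of the ATAAA kind, next to a C at the upstream side. CUT&RUN reads such binding by releasing DNA next to the antibody-bound protein with a tethered nuclease. Open chromatin, promoters above all, is known to give reads in this assay as well. In a pool of cells, more cells with a bound site and more signal per cell cannot be told apart.

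The sequences below show what the strongest unique sites with a HOX13 consensus look like beside shared ones. They are the 6 unique and the 3 shared intervals of highest −log10 p that held the consensus in the 50 bp at the summit and were at most 50% repeat-masked. Each line but the last gives the summit with 50 bases to either side (plus strand, mm10). The window of the last site touches an annotated exon, so 30 bases are given, which end before the summit. Capitals mark the consensus, which was searched on both strands in the forms CCNATAAA, CCNGTAAA, CTNATAAA and CTNGTAAA.
Unique, near Tmem100, chr11:90099548-90099648: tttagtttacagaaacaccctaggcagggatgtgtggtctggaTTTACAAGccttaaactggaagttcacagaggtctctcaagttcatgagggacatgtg
Unique, near Adam29, chr8:55540934-55541034: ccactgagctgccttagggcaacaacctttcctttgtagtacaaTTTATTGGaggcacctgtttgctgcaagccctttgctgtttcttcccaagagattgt
Unique, near Nbea, chr3:56691290-56691390: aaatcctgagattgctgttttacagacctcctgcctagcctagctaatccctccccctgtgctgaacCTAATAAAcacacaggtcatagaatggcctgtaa
Unique, in Col9a1, chr1:24226161-24226261: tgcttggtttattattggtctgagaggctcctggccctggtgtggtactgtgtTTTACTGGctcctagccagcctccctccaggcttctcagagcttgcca
Unique, near Hace1, chr10:46036183-46036283: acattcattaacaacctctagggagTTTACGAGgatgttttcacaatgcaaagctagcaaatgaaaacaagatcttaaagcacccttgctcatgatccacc
Unique, in Otud7a, chr7:63653978-63654078: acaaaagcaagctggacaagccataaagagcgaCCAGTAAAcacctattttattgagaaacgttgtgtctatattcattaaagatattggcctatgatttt
Shared, near Elac2, chr11:64834110-64834210: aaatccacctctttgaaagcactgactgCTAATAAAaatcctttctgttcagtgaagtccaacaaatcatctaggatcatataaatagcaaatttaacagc
Shared, near Nfe2l3, chr6:51178228-51178328: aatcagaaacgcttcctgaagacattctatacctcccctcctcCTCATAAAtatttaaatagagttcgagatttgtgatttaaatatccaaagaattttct
Shared, at Cryzl1, chr16:91728784-91728813: cccagggaccaCCAATAAAtgggagaagtt

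All 9 windows held 1 match, and those of the unique sites started between 25 bp before and 17 bp after the summit on the plus strand. The strongest of the 6 unique sites lay 69250 bp past the start of Tmem100, a membrane protein gene of the vasculature. The number of read ends over its summit, the pileup, was 120 (exact Poisson 95% interval 99.5 to 143.5) over a local background of 13.5, a fold enrichment of 8.33. Fold enrichment is the pileup plus 1 divided by the background plus 1. The site in an intron of Col9a1, which encodes a chain of the cartilage collagen IX, reached a pileup of 84 (67.0 to 104.0) and a fold enrichment of 8.33. The site 507639 bp before the start of Nbea, a scaffold of vesicle traffic, reached 81 (64.3 to 100.7) and 9.56-fold. The intervals cover counting error within this library only. The nearest interval of any other list was 887 to 13827 bp away from these 6 sites.

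The 3 shared sites ranked far higher by −log10 p, with values of 836 to 917 against 44.5 to 69.9 at the 6 unique sites. Fold enrichments were closer, 8.33 to 9.995 at the unique sites. In the E11.5 list those of the shared sites were 14.3 near Elac2, a tRNA processing gene, 7.39 near Nfe2l3, a basic leucine zipper factor, and 17.7 at the start of Cryzl1. In the other 8 lists the site near Elac2 ranged from 7.66-fold in wt HOXD13 replicate 3 to 16.7-fold in 542 HOXA13 replicate 2. The E11.5 value lay inside the range of the E12.5 libraries at all 3 sites except that at Cryzl1, where 17.7 was above the highest other value of 16.6. These are lists with separate backgrounds, so the values are set side by side and not compared further.

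Most unique intervals were weak. Their median fold enrichment was 2.75 (10th to 90th percentile 2.17 to 3.64) against 7.89 (3.87 to 12.2) in shared intervals. The median pileup at a unique summit was 22 read ends over a background of 7.004, which is the genome-wide level, and 76.3% of unique summits stood on that level. Unique intervals were short, with a median width of 274 bp against 1035 bp, and 87.9% had 1 summit. Intervals private to each of the other 8 lists were alike in this, with median fold enrichments of 2.67 to 3.12 and median widths of 219 to 278 bp. These values belong to the peak calls that chose the members, and they are a description. The rarity of strong members showed in the ranking by −log10 p, where the best unique interval was number 6928. The top 1000 intervals of the list held 0 unique and 929 shared ones, and the top 10000 held 7 unique and 6049 shared ones. A fold enrichment of at least 5 was reached by 681 unique intervals (1.84%) and by 9804 shared ones (81.0%).

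**Figure D1:**
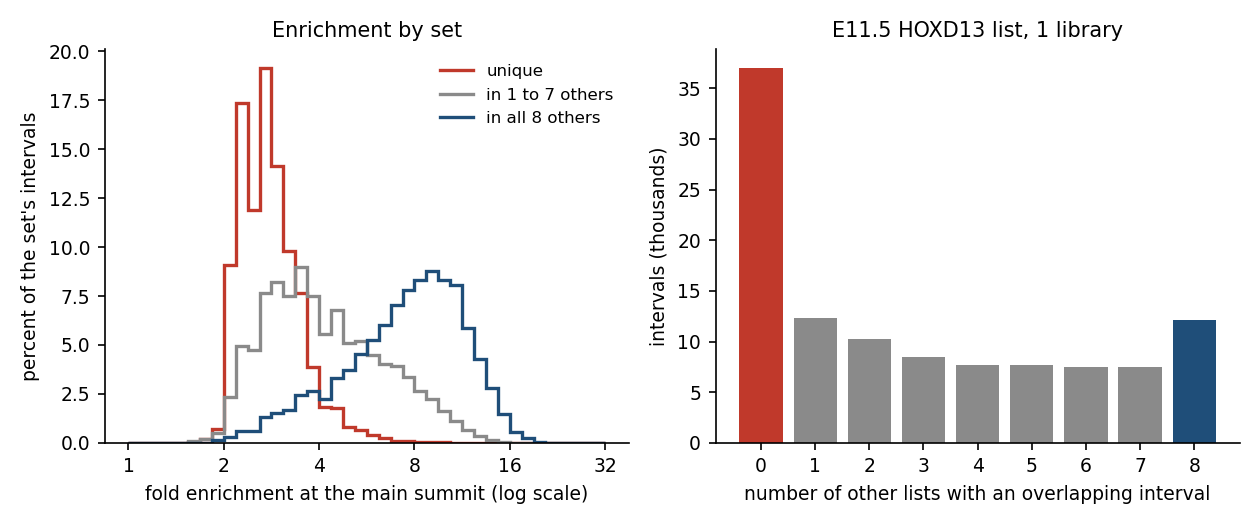
Left, fold enrichment at the main summit (log scale) against the percent of each set's intervals, for unique intervals, those in 1 to 7 other lists and shared ones. Right, number of E11.5 HOXD13 intervals (axis in units of 1000) by the number of other lists that overlap them; unique intervals sit near a median of 2.75-fold and form the tallest bar, 36999.

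Part of the members lay close to the threshold of the rule. The gap to the nearest interval of another list had a median of 3792 bp, but 5557 members (15.0%) lay within 500 bp of one and 10 members abutted one. Just inside the rule, the interval chr3:98382168-98382418 before the start of Zfp697, a zinc finger gene, touched an interval of wt HOXD13 replicate 2 without sharing a base and had a fold enrichment of 3.37. Just outside it, chr6:36810551-36810763, at the start of Ptn, a growth factor gene, shared 1 base with wt HOXA13 replicate 1 and had 2.52. The other intervals just inside were 2.49, 2.75, 2.66 and 2.62-fold enriched, and the others just outside 3.498, 3.12, 3.12 and 2.98. At the far side, 8299 members (22.4%) had no interval of another list within 10 kb.

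Among the intervals that were found in 1 other list, 1 library was the most frequent partner. Of these 12326 intervals, 6910 (56.1%) overlapped 542 HOXA13 replicate 1, the library nearest to this one in depth. The second 542 library, HOXA13 replicate 2, was the partner of 935 (7.59%). More overlapped wt HOXD13 replicate 2 (1547, 12.55%) and wt HOXA13 replicate 1 (1513, 12.27%). The remaining wt lists were partners of fewer, from 28 (wt HOXD13 replicate 1, the list with the fewest intervals) to 749 (wt HOXA13 replicate 3). Over the whole E11.5 list, 58.1% of intervals overlapped 542 HOXA13 replicate 1 and 46.1% replicate 2. The wt HOXA13 lists overlapped 46.25%, 33.0% and 31.7%, and the wt HOXD13 lists, which share the antibody, 16.3%, 37.6% and 22.0%. These lists differ in size, from 23939 intervals in wt HOXD13 replicate 1 to 99090 in 542 HOXA13 replicate 1. The part of list size in these shares was not tested. The E11.5 library had the most read ends, 65.5 M as implied by its background, and the other libraries 36.9 to 63.9 M. The same rule applied to each other list gave private shares of 2.78% (wt HOXD13 replicate 1) to 22.6% (wt HOXD13 replicate 2).

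That comparison favours the E11.5 list, which has no replicate that could overlap it. When each E12.5 list was compared with lists of other groups alone, its share without overlap was 3.25% to 22.9%, still below 33.5%. The numbers of strong intervals without a partner were further apart than the shares. Intervals of at least 5-fold without a partner in another group numbered 681 in the E11.5 list, 224 and 110 in the 542 HOXA13 lists, and 2 to 66 in the wt lists. As a share of the intervals without a partner these were 1.84%, 1.66% and 1.65% in the 542 lists and 0.0495% to 0.533% in the wt lists. The part of depth in these shares was not tested.

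**Figure D2:**
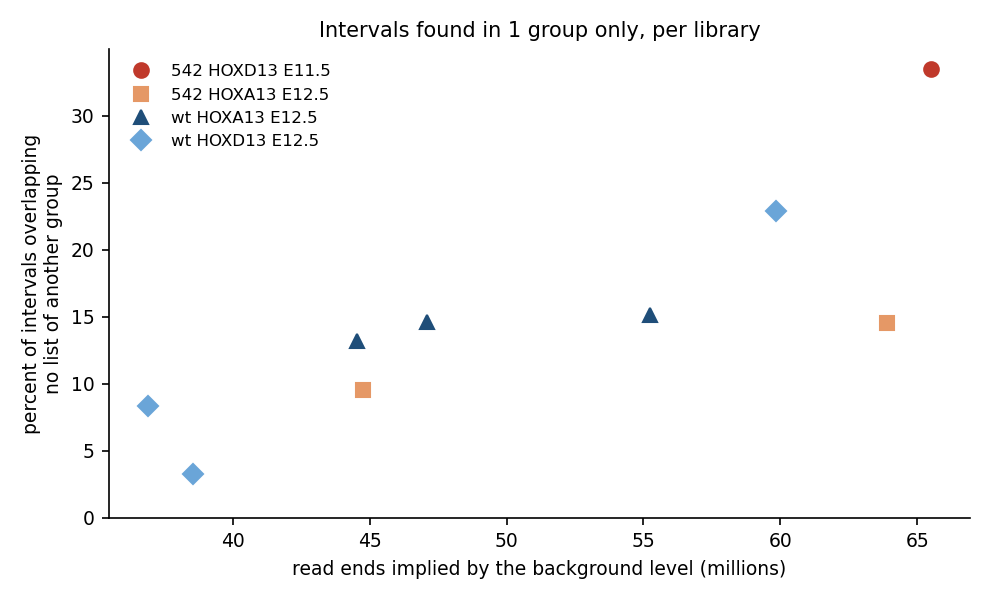
Each point is 1 library: read ends implied by its background (M) against the percent of its intervals that overlap no list of another genotype, stage and antibody group. The E11.5 HOXD13 library lies highest on both axes, at 65.5 M and 33.5%. The next highest share is 22.9%, in wt HOXD13 replicate 2 at 59.8 M. The library nearest in depth, 542 HOXA13 replicate 1, lies at 63.9 M and 14.6%.

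Unique intervals lay away from promoters. A summit within 1000 bp of a coding transcription start was found in 1163 of them, or 3.14% (Wilson 95% interval 2.97 to 3.33), against 3443 shared ones, or 28.5% (27.7 to 29.3). Introns of coding genes held 45.7% of unique and 33.3% of shared summits, and intergenic sequence 42.0% and 31.6%. The median distance to a coding start was 57750 bp for unique and 26708 bp for shared intervals, and 37.3% against 25.8% lay beyond 100 kb. Coding exons outside promoters held 2.58% and 1.19%. Low promoter shares were not particular to this list. Intervals private to each of the other 8 lists had 2.34% to 7.22% at promoters, and those of each list found in all others 28.2% to 28.9%.

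The change with distance was concentrated at the start itself. Within 1 kb of a start, 9.19% of the listed intervals were unique, and between 1 and 5 kb 32.5% were. From 5 to 500 kb the share stayed between 35.2% and 36.8%, and beyond 500 kb it was 45.6%. Among intervals of one strength, with fold enrichments of 3 to 4, it was 12.46% within 1 kb and 43.8% beyond 500 kb.

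**Figure D3:**
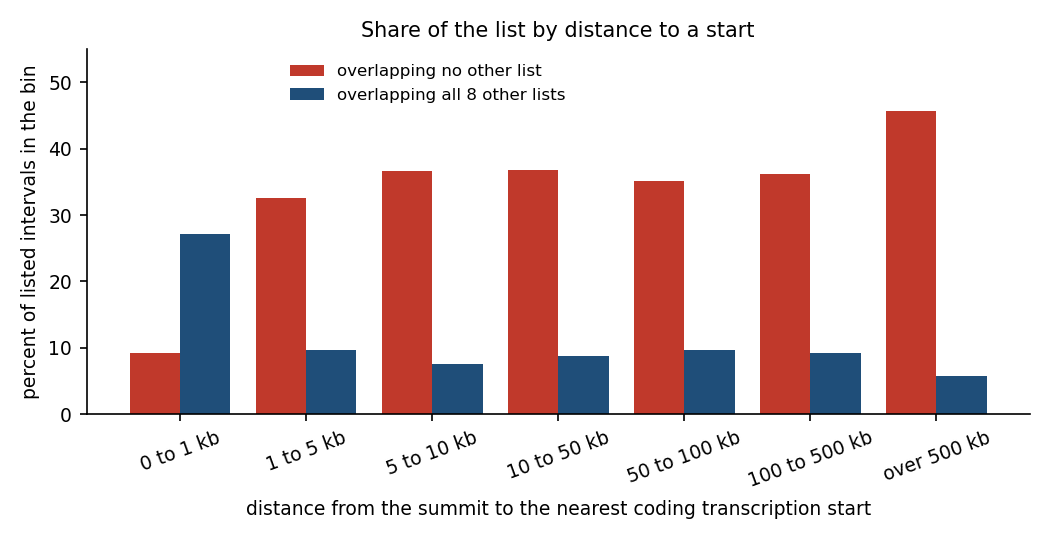
Percent of the listed E11.5 HOXD13 intervals in each bin of distance to the nearest coding start that overlap no other list (red) or all 8 others (blue). The unique share is 9.19% within 1 kb and at least 32.5% in every other bin, and the shared share is 27.2% within 1 kb and under 10% elsewhere.

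The promoter members were in good part neighbours of peaks called in other libraries. Of the 1163, 615 (52.9%) lay within 500 bp of an interval of another list, against 13.8% of the members elsewhere. They marked 1084 of 19417 coding genes (5.58%), and 562 of these genes had a second promoter interval in the list that was not unique. Shared intervals marked the promoters of 3385 genes (17.4%). Their median GC content over 200 bp was 52.5%, against 62% in shared promoter intervals.

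The HOX13 consensus lay at a smaller share of unique than of shared summits. In the 50 bp at the summit, 2720 unique intervals (7.35%, 7.09 to 7.62) and 1861 shared ones (15.4%, 14.8 to 16.03) held it. In windows of 50 bp placed every 10 kb along the autosomes the share was 2.6%, and 1 kb to either side of the unique summits it was 2.61%. The unique share was thus above both backgrounds and below the shared one. The gap was wider away from promoters, where 7.47% of unique and 19.6% of shared intervals held the consensus. At promoters both were low, 3.87% and 4.68%.

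Matches gathered at the summit in both sets. In bins of 20 bp there were 34.3 matches per 1000 unique summits in the central bin and 12.9 on average 400 to 500 bp away. Shared summits had 77.1 and 11.47. The 681 unique intervals of at least 5-fold had 61.7 and 12.7.

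**Figure D4:**
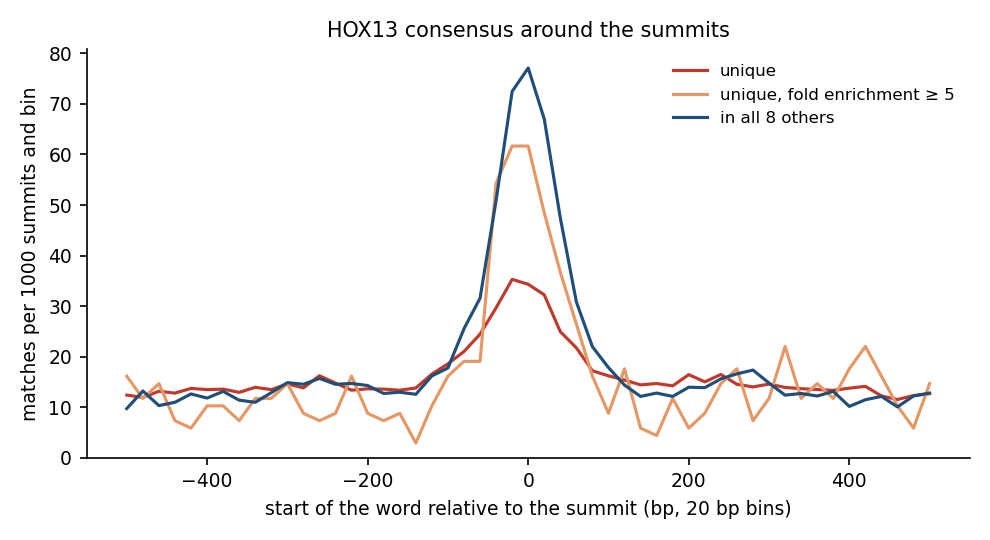
HOX13 consensus matches per 1000 summits in bins of 20 bp, by distance from the summit (bp), for unique intervals, unique ones of at least 5-fold enrichment and shared ones. All 3 lines rise at the summit, to 34.3, 61.7 and 77.1 in the central bin, and meet the same level away from it.

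Stronger unique intervals held the consensus in a larger share. It was 6.18% (5.90 to 6.48) at 2 to 3-fold, 9.60% (8.98 to 10.2) at 3 to 4-fold, 12.8% (11.3 to 14.6) at 4 to 5-fold and 13.6% (11.1 to 16.6) at 5 to 7-fold. Shared intervals of the same strengths had 12.3%, 12.4%, 13.5% and 14.9%. At 7-fold and over the shares were 13.75% (7.86 to 22.97) of unique and 16.4% of shared intervals. Unique and shared shares thus lay furthest apart at 2 to 3-fold. Strength and membership both come from the same peak calls of 1 library, so this is a description and no test was made. Promoter shares lay closest at 2 to 3-fold, the strength of 26184 members, where they were 2.89% and 4.84%. At 4 to 5-fold they were 4.35% and 17.95%, and at 7-fold and over 1.25% of 80 unique and 34.6% of 7275 shared intervals.

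**Figure D5:**
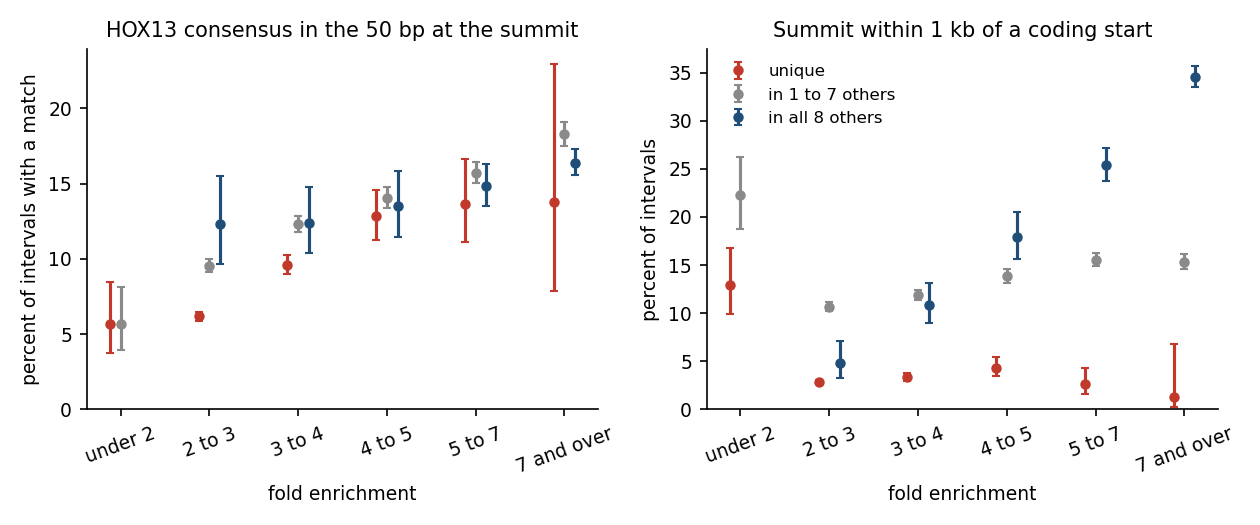
Percent of intervals with a HOX13 consensus in the 50 bp at the summit (left) and with a summit within 1 kb of a coding start (right), by fold enrichment. Points are shares with Wilson 95% intervals, and sets of fewer than 50 intervals are not drawn; the consensus shares of unique and shared intervals come close from 4-fold upwards, and the promoter shares lie closest at 2 to 3-fold.

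Other words fell into several patterns. GGGCGG, the GC box bound by SP and KLF factors of promoters, was in 0.84% of unique, 8.28% of shared and 0.47% of grid windows of 50 bp. CCGGAAGT, an ETS word also common at promoters, was in 0.024%, 0.52% and 0.035%. The homeodomain core TAATTA was in 3.44% of unique and 3.52% of shared windows against 1.74% of the grid, and in 5.87% of unique windows of at least 5-fold. AGATAA, the GATA word, was in 3.08% of unique and 1.03% of shared windows and in 3.20% of the grid. CAGCTG, an E-box, was counted in 200 bp windows and was in 9.42% of unique, 15.4% of unique of at least 5-fold, 11.7% of shared and 7.395% of grid windows. The forkhead word TGTTTAC, whose reverse complement can overlap CTNGTAAA and CCNGTAAA, was in 456 unique 50 bp windows, 92 of which held the HOX13 consensus as well. CCAAT, the NFY word and part of CCAATAAA, was in 8.15% of unique, 13.5% of shared and 7.83% of grid windows.

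Base composition and repeat content were measured as well. Over 200 bp the median GC content was 41.5% in unique intervals, 45.5% in shared ones and 42% in the grid. The median repeat-masked share was 12%, 3.5% and 22%. At least 50% of the window was masked in 9.48% of unique, 0.95% of shared and 27.4% of grid windows. Reads of low mapping quality had been removed, and the E11.5 library had the longest reads. The part of read length in these values was not tested.

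The 10 unique intervals of highest −log10 p, chromosome 18 left out, were a mixed set. The first, chr4:154957615-154958846, lay 2613 bp before the start of Hes5, a Notch-responsive repressor gene, with a pileup of 128 (106.8 to 152.2), a background of 10.8 and a fold enrichment of 10.9. The second, in Zfp277, reached 222 (193.8 to 253.2) but over a background of 45.9, or 4.75-fold. Of the 10 sites, 7 were at least 5-fold enriched and 4 stood on a background above 20. The site with the highest fold enrichment of all members was at the promoter of Rtn2, a reticulon gene, 438 bp past the start, with a pileup of 95 (76.9 to 116.1) and 11.46-fold. A site 97225 bp before the start of Tbx2, a T-box gene of the limb margins, lay in an intron of Bcas3 and reached 190 (163.9 to 219.0) over 45.8. The site nearest to Gata3, a zinc finger transcription factor gene, was 1134016 bp past its start and 9.72-fold enriched. The site by Tnrc18 had a pileup of 374 over 130.5, hence 2.85-fold, in an interval of 225 bp. The remaining ones were nearest to Tmem100, described above, Filip1l, Fhit and Cenpw, at 5.69 to 9.76-fold. The consensus lay in the 50 bp at the summit of 1 of the 10, that by Tmem100. Their gaps to other lists were 438 to 14461 bp.

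Unique intervals were spread over many genes. They were nearest to 9423 of 19417 coding genes (48.5%), and 3548 of these genes had 1 such interval. The genes with the most were Adgrl2 with 72 and Adgrl3 with 66, both latrophilin adhesion receptors, then Tenm3, Flrt2 and Pcdh7 with 61 each. Efnb2, an ephrin, had 58, Robo2, a receptor for SLIT guidance cues, 57, Ptprd, a receptor phosphatase, 53, Efna5, also an ephrin, 51, and Tenm2, a teneurin like Tenm3, 50. These genes were 43.8 to 2271 kb long and had many intervals of every class. Adgrl2 was nearest to 223 listed intervals, 32.3% of them unique, close to the 33.5% of the list. The share was highest at Efnb2, where 58 of 117 were unique (49.6%), and at Pcdh7 (46.6%).

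The 681 members of at least 5-fold were nearest to 623 coding genes, 574 of which had 1 and 49 more than 1. Trps1, a GATA-type repressor gene of chondrocytes and hair, had 4 of them among 37 unique intervals, up to 7.79-fold. Sox11, a SOX factor gene of progenitor cells, Cntn5, Lrp1b and Nkain3 were among 7 genes with 3. The 41 genes with 2 included Sall1, a zinc finger gene of the limb bud, Nbea, Adam29, Auts2 and Map2k6, ranked first among them by −log10 p, and Efnb2, Dach1 and Isl1. Of the 57 listed intervals nearest to Lrp1b, a large lipoprotein receptor gene, 36 (63.2%) were unique and 2 were shared.

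Unique intervals formed short chains at small gaps. Chained at gaps of up to 10 kb, the 36999 intervals formed 29224 chains, and 62.8% of members stood alone, against 82.8% of the 12100 shared intervals, which are fewer. At gaps of up to 50 kb, 16.5% of unique and 42.3% of shared intervals stood alone, 66.2% and 32.1% were in chains of at least 3, and the largest chains held 40 and 19. The largest chain at 10 kb, chr1:33447575-33479618, held 9 unique and 2 other intervals over 32 kb near Prim2, the large primase subunit gene, at a median of 3.40-fold. Chains of 7 lay near Tmem252, Tmem110 and Psat1, and one of 6, chr8:23384173-23404756, near Sfrp1, a secreted WNT antagonist, had the strongest member, with a −log10 p of 28.0 and a median of 3.81-fold. None of these 5 spans held a shared interval, but they were chosen for their unique intervals and held few others. The largest shared chain, chosen for its shared intervals, was the HoxA cluster, chr6:52190299-52254834, with 10 shared and 2 unique among 16 intervals. A histone gene cluster followed with 9 shared and 0 unique among 11.

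In windows of 1 Mb with at least 20 listed intervals, the unique share had a median of 33.3% (10th to 90th percentile 22.45 to 47.2). The 5 windows with the highest shares, 68.0% to 82.6%, held 15 to 22 unique and 0 shared intervals each, and were 35.8% to 37.35% GC. As these windows were chosen by unique share, few of their intervals were left that could be shared. The windows lie around Cdh9 and Cdh10, cadherin genes, around Lrrn3, around Cadm2 and Speer2 (2 adjoining windows), and around Bche and Slitrk3. The windows with the largest numbers of unique intervals were different ones. Robo2 led with 49 of 105 (46.7%), and Lrba and Mab21l2 followed with 47 of 126 (37.3%).

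Distances to other peaks of the same list were also measured. The nearest interval of any class was a median of 5091 bp from a unique and 5695.5 bp from a shared interval. The nearest shared interval was a median of 62560 bp from a unique and 38666 bp from another shared one.

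Genes of the limb bud were then counted by list. Among 50 genes of limb patterning and signalling, 45 (90%) were nearest to a unique interval, against 48.5% of all coding genes. For shared intervals these values were 80% and 33.25%. The patterning genes were nearest to a median of 21 listed intervals of any class, against 2 for all coding genes. Lists of other tissues were also high, with 88.9% of muscle, 84.2% of endothelial and 80% of blood genes. Of the 1478 intervals listed near the patterning genes, 424 (28.7%) were unique. Epha7 had 45, Epha4 had 32 and Epha3 had 24, all ephrin receptors, Dach1, a transcriptional cofactor gene, had 33, and Tbx3 and Sall1 had 17 each. The strongest was 368103 bp from Sall1, at 8.91-fold. The cartilage, digit and joint list had 194 of 710 (27.3%), with 29 at Sox5, 27 at Sox9 and 17 at Sox6, the trio of chondrogenic SOX genes, and the Hox list 33 of 148 (22.3%). All of these lie below the 33.5% of the list, and their shared shares of 12.25%, 15.1% and 18.2% lie above its 10.9%.

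The proximal limb and retinoic acid list had 157 unique of 505 intervals (31.1%) and 59 shared (11.7%), both near the 33.5% and 10.9% of the whole list. Several of its genes had unique intervals at their starts. Of 22 genes found, 6 (27.3%) had one at the promoter, against 5.58% of all coding genes and 3 of the 50 patterning genes (6%), while 2 (9.09%) had a shared one, against 17.4%. They were Cyp26b1, which degrades retinoic acid, Aldh1a3, which makes it, Rarg, a receptor for it, Crabp1, which binds it in the cytoplasm, Meis1, a proximal homeodomain factor, and Pbx2, a partner of MEIS and HOX proteins. All of these genes but Meis1 also had a promoter interval in the E11.5 list that was not unique. Cyp26b1 had 2 unique ones, with pileups of 99 (80.5 to 120.5) over 33.9 and 97 (78.7 to 118.3) over 36.0, so 2.87 and 2.65-fold. Rarg had 196 (169.5 to 225.4) over 65.5, or 2.96-fold. Meis1 had 2 of 2.05 and 1.93-fold over backgrounds of 25.9 and 28.0. These starts thus stood on a local background several times the genome-wide level of 7.004. Crabp1 and Aldh1a3 had 23 and 20 read ends over 7.74 and 7.004. The gaps to another list were 116 bp and 840 bp at Cyp26b1 and 3289 bp and 3620 bp at Meis1. At Pbx2, Crabp1, Aldh1a3 and Rarg they were 442, 488, 519 and 786 bp, so Meis1 alone lay beyond 840 bp. Genes of this list were nearest to a median of 20.5 listed intervals each, against 2 for all coding genes. The gene list was chosen with earlier results known, and its count is a description.

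The ectoderm and apical ridge list had a unique promoter interval at 5 of 24 genes (20.8%, against 5.58% of all coding genes) and a shared one at 0 (against 17.4%). Esrp1, an epithelial splicing regulator, had 2, the stronger with a pileup of 58 (44.0 to 74.98) over 9.38 and 5.68-fold, 107 bp from the start. Tfap2a had 135 (113.2 to 159.8) over 48.4, Cldn6, a tight junction gene, 37 (26.05 to 51) over 7.20, and Trp63, the master factor of epidermis, 2 intervals of 3.23 and 2.47-fold, 7430 and 6795 bp from any other list. Epcam, an epithelial adhesion gene, had 21 read ends over 7.004. The gaps to another list were 107 bp at Epcam, 495 and 982 bp at Esrp1, 912 bp at Tfap2a and 4305 bp at Cldn6. Tfap2a also had a promoter interval in the E11.5 list that was not unique. Over the whole list 84 of 207 intervals (40.6%) were unique, and 2.38% of these 84 held the HOX13 consensus. Its genes were nearest to a median of 5.5 listed intervals each, against 2 for all coding genes. Sp8, a factor of the apical ridge, and Trp63 had 15 unique intervals each.

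Lists for other cell types gave shares on both sides of 33.5%. Neural crest, glia and neuron genes had 82 unique of 201 (40.8%), 24 of them at Isl1, a LIM homeodomain gene that the hindlimb field also uses, and none at a promoter. Muscle genes had 95 of 248 (38.3%), 33 of them at Mef2c. Mef2c, Lbx1 and Tnnt1 had promoter members, so 3 of 18 muscle genes (16.7%, against 5.58% of all coding genes). A shared promoter interval was at 0 muscle genes (against 17.4%), and their median was 7 listed intervals per gene. Blood genes had 56 of 163 (34.4%) and a promoter member at 1 of 15, Epor (6.67%). Endothelial genes had 56 of 174 (32.2%) and one at 1 of 19, Flt1 (5.26%). Whether the cells dissected for this library differed in type from those of the others was not tested.

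At the Hox genes themselves, 4 of 41 had a unique promoter interval (9.76%, against 5.58% of all coding genes) and 8 a shared one (19.5%, against 17.4%). At Hoxa13, which encodes the partner of HOXD13 in the digits, the interval chr6:52260730-52261013 lay 33 bp from the start with a pileup of 74 (58.1 to 92.9) over 33.8, or 2.16-fold. None of the other 8 lists had an interval within 1000 bp of a Hoxa13 start. The nearest one, of wt HOXA13 replicate 3, was 1120 bp from this member. Of the 8 listed intervals nearest to Hoxa13, 1 was unique and 1 was shared. Hoxa7 had the highest pileup of any member, 430 (390.3 to 472.6), over 226.5, so its fold enrichment was 1.90. Hoxa4 and Evx1, the homeobox gene beside HoxA, had 1.93 and 1.77-fold. Hoxa7 and Hoxa4 each had a shared interval at the promoter as well. In other lists Ptch1, the Hedgehog receptor, reached 1.96-fold over 52.0, Mycn, a growth regulator, 2.36-fold over 40.5, and Col9a1 2.43-fold over 14.2. These 7 values are below the median of the members.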

How the data were processed

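CUT&RUN libraries for HOXA13 and HOXD13 were analysed from 9 deposited peak lists, 1 per library. As the study's methods state, the authors trimmed reads with Cutadapt, mapped pairs with bowtie2 (wt on mm10, 542 on the mutant genome), removed alignments of low quality and discordant pairs, and called peaks per sample with MACS2, with read ends extended to 200 bp and no control. The reporting summary says that duplicates were removed, while the command it prints marks them and keeps them, so the deposited pileups may hold them. The mutant genome differs from mm10 on chromosome 2 past the insertion, so intervals there were left out, and no coordinate was converted. The fold enrichment deposited for each summit is a ratio: pileup plus 1 over the local background plus 1. The deposited −log10 p and −log10 q come from a Poisson test of that pileup, and the authors' integer score derives from the −log10 q. The summit offset was deposited beside them.

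Rows with the same coordinates were joined into 1 interval, with the summit of highest −log10 p as main summit. Pileup and background were solved from the deposited fold enrichment and −log10 p, and all 36999 members were recovered within 0.001 on the −log10 scale. The solution is void where the p-value is too small, so no pileup is given for the strongest shared sites. Read ends per library follow from the lowest background. Overlap needed 1 bp. Starts and genes were those of coding genes in GENCODE basic M21 on GRCm38, the assembly of mm10, whose RefSeq sequence was searched for 19 words. The grid had 228950 windows of 50 bp. Coordinates are 1-based. Wilson and exact Poisson 95% intervals cover counting error only, and read ends are not independent molecules. With 1 library of this group, there was no spread between replicates and no test.

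Named by rule, off chromosome 18, were the 10 unique intervals of highest −log10 p, the 6 unique and 3 shared ones with the consensus, the 5 nearest the overlap threshold on each side, the 10 genes with most unique intervals and with most of at least 5-fold, the 5 leading chains and 1 Mb windows, and in each of the 9 gene lists up to 5 genes with most members and those with a promoter member. Members, words and gene lists were chosen with earlier results of these data known. Alternatives were other lists widened by 500 bp, overlap of 50% of both intervals, limits of 5 on fold enrichment and on −log10 q, the X chromosome added, each other list left out, promoters of 2500 bp, a 200 bp motif window and 1 word in place of 4 forms. Leaving out both 542 HOXA13 lists was added after the data were seen. Functions were checked on simulated intervals. Python 3.11.15, numpy 2.4.6, pandas 2.3.3, scipy 1.17.1 and matplotlib 3.10.9 were used.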

Additional observations from a re-analysis of the deposited data

How the results depend on the processing

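The 36999 unique intervals became 681 with a fold enrichment of at least 5 and 11228 with a −log10 q of at least 5. Leaving out each other list in turn gave 37027 to 43909, the most without 542 HOXA13 replicate 1. The share of unique intervals at promoters (3.14%) became 1.75% with the other lists widened by 500 bp, 5.60% with overlap of 50% of both intervals, 2.50% at 5-fold, 4.16% at the q limit, 6.04% within 2500 bp, and 3.13% to 4.10% when lists were left out, the highest without wt HOXD13 replicate 2. The shared share (28.5%) became 27.4% with 50% overlap, 32.2% at 5-fold, 29.3% at the q limit, 31.4% within 2500 bp and 25.9% to 29.3% when lists were left out. The consensus share of unique intervals (7.35%) became 7.96% with 50% overlap, 13.7% at 5-fold, 10.3% at the q limit, 22.55% in 200 bp, 1.06% for the single word CCAATAAA, 7.30% to 8.24% when lists were left out, and 9.195% without both 542 HOXA13 lists. That of shared intervals (15.4%) became 16.5% with 50% overlap, 16% at 5-fold, 35.0% in 200 bp, 2.37% for the single word, and 15.1% to 15.5% when lists were left out. The median fold enrichment of 2.75 became 5.65 and 3.37 under the strength limits, by construction. In every setting run, unique intervals had lower promoter and consensus shares than shared ones. At 5-fold, however, the consensus shares were close, 13.7% (11.3 to 16.4) and 16% (15.3 to 16.7), with intervals that cover counting error only. No paired analysis was possible because the E11.5 group held 1 library and no result came from a test. The median pileup of the members was 22 read ends. Whether the same sites lie just under the calling limit in shallower libraries was not tested.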

Other observations

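The unique share varied little between chromosomes, from 30.6% of the listed intervals on chromosome 7 to 36.2% on chromosome 16. Per Mb, chromosome 2 up to the insertion held 18.6 unique intervals and chromosome 7 held 11.2. In the 1 Mb windows with the lowest shares, 3 of 34 listed intervals were unique in the window with Unc13a on chromosome 8 (8.82%), 4 of 41 in that with Plcb3 and Rasgrp2 on chromosome 19 (9.76%), and 7 of 57 around Tshz3, a zinc finger gene, on chromosome 7 (12.3%).

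The consensus share among private intervals was 7.35% in the E11.5 HOXD13 list, which has no replicate. It was 14.95% and 10.8% in the 542 HOXA13 lists, 2.01% to 4.78% in the wt HOXA13 lists and 1.72% to 4.15% in the wt HOXD13 lists. Compared with lists of other groups alone, the 542 HOXA13 lists had 15.9% and 14.1%. The wt HOXA13 lists then had 2.57% to 5.15% and the wt HOXD13 lists 1.76% to 4.10%. The share of private intervals beyond 100 kb from a coding start was 37.3% in the E11.5 list, 35.5% and 34.0% in the 542 HOXA13 lists, and 19.3% to 41.3% in the wt lists, with both replicates 3 at 40.25% or more.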
